A study of Xenopus tropicalis with 12 samples.

Results

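The Tcf/Lef and sp5 genes of Xenopus tropicalis are 6 genes: the 4 members of the Tcf/Lef family (lef1, tcf7, tcf7l1 and tcf7l2) and the Sp family genes sp5 and sp5l. They were taken by name, as the Tcf/Lef family and the Sp genes known as Wnt targets, and make up 6 of 26550 gene models and 6 of the 1197 transcription factors (TFs) with a gene model. Their gene models are Xetrov90001069 (lef1), Xetrov90007356 (tcf7), Xetrov90009039 (tcf7l1), Xetrov90030375 (tcf7l2), Xetrov90024287 (sp5) and Xetrov90006342 (sp5l). Embryos at Nieuwkoop and Faber stage 10 to 10.25, for which the labels name no treatment or genotype, were dissected into dorsal marginal zone (DMZ), lateral marginal zone (LMZ), ventral marginal zone (VMZ), animal cap (AC) and vegetal mass (VEG), and whole sibling embryos were sequenced as the reference. The text deposited with the series gives a later stage for the same embryos. The study's methods give stage 10 to 10.25 for the dissection, as the labels do, and state that siblings were staged again at homogenization. Each of the 6 groups has 2 libraries of polyA+ RNA, replicate 1 from 1 clutch and replicate 2 from another, and each region library pools about 30 explants, or 2 times as many for LMZ, which gives 2 explants per embryo. The pooled explants hold all cells of a region, so a value below is a mean over them and not a level in any 1 cell type.

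In canonical Wnt signalling, stabilised β-catenin enters the nucleus and binds Tcf/Lef proteins, which sit on DNA through an HMG box and switch from repression to activation of their targets. Tcf7l1, known as Tcf3 in older Xenopus work, acts mainly as a repressor, Lef1 mainly as an activator, and Tcf7 and Tcf7l2 can do both. The frog embryo uses this pathway first on the dorsal side, from maternal stores, and again in the ventral and lateral marginal zone, where zygotic wnt8a patterns mesoderm. The sp5 and sp5l genes encode zinc finger factors of the Sp family, and in zebrafish both are targets of Wnt signalling that act downstream of Wnt8.

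Expected counts summed to 14634582 to 29166548 per library, with 27126407 to 29166548 in replicate 1 and 14634582 to 26335531 in replicate 2. All 7 of 7 region markers checked (foxi1 for AC, gsc for DMZ, ventx1.1 and ventx1.2 for VMZ, t for the marginal zones, sox17a and foxa1 for VEG) were highest in their labelled region in both replicates. Levels are given as TPM (a share of all transcripts, corrected for transcript length), and fold changes and tests come from the expected counts with edgeR, with p adjusted for the number of genes and called under 0.05. A second fit took the clutch as a block, which removes the difference between clutches from the spread, and its adjusted p is given for each comparison of regions in which it changed the call of a member. For other gene groups the number called with the block is given.

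The 5 genes with enough counts for a test did not all have the same regional profile. Expression of sp5l and sp5 was lowest in AC, and that of tcf7l1 was highest in DMZ and AC. That of lef1, like that of sp5, was lowest in AC and DMZ, and that of tcf7 was highest in VEG. Each of these held in both clutches. Over the 5 regions 1 member, sp5l, passed the F test of any difference (adjusted p = 0.0178), where 3.83% of the 15727 genes tested passed. With the clutch as a block all 5 passed, at adjusted p values of 8.73e-05 for sp5l, 0.0012 for sp5, 0.00735 for tcf7l1, 0.00874 for tcf7 and 0.0137 for lef1, and so did 29.9% of all genes. In explants of this kind, fewer cells that express a gene and less of its RNA per cell cannot be told apart.

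**Figure D1:**
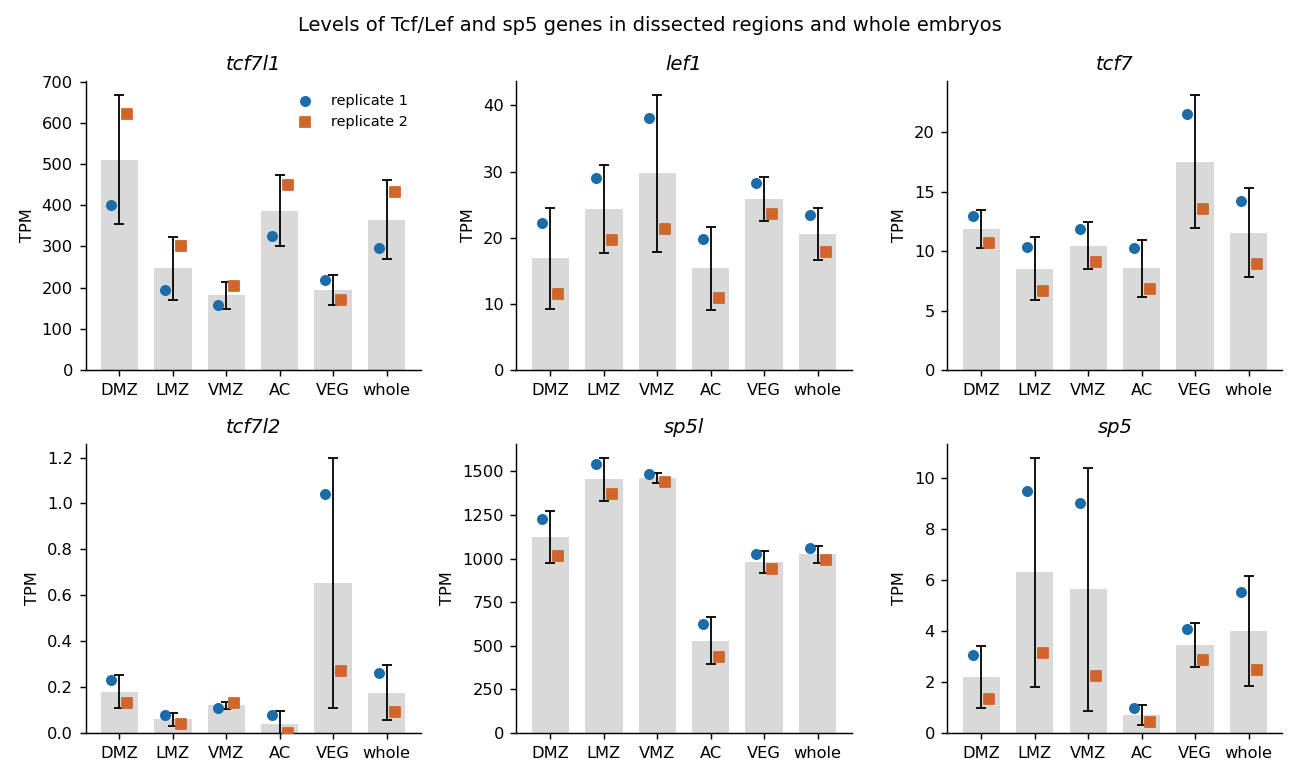
TPM of the 6 genes in DMZ, LMZ, VMZ, AC, VEG and whole embryos. Grey bars are means of 2 libraries with their SD, circles are replicate 1 and squares replicate 2, and each panel has its own linear axis from 0. The AC points of sp5l lie below all other libraries, and the DMZ and AC points of tcf7l1 lie above those of the other 3 regions.

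Among the Tcf/Lef genes, tcf7l1 was the most abundant in every library. It had 399 and 622 TPM in DMZ, 194 and 301 TPM in LMZ, 159 and 205 TPM in VMZ, 326 and 448 TPM in AC, and 219 and 169 TPM in VEG (replicates 1 and 2), against 297 and 433 TPM in whole embryos. The lowest DMZ or AC library, AC of replicate 1, was above the highest LMZ, VMZ or VEG library, LMZ of replicate 2. DMZ was first and AC was next in both clutches, while VEG came next in replicate 1 and last in replicate 2. The highest region was 2.51 times the lowest in replicate 1 and 3.67 times in replicate 2.

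Levels of tcf7l1, the Tcf/Lef repressor, declined from DMZ over LMZ to VMZ in both clutches. Its level was 511 ± 157 TPM in DMZ, 247 ± 76.0 TPM in LMZ and 182 ± 32.6 TPM in VMZ (mean ± SD, n = 2 each). DMZ was 2.51 and 3.03 times VMZ in the clutches, a log2 fold change of 1.58 ± 0.46 (SE) that did not pass the test (adjusted p = 0.938) but did with the clutch as a block (adjusted p = 0.0358). It was the 1 member called between DMZ and VMZ with the block, where 1.46% of all genes were. Without the block edgeR called 0 members, with 1 at an unadjusted p under 0.05, and 0.0445% of all genes. DESeq2 called 0 members and 162 of 15727 genes. DMZ was also 2.06 times LMZ in each clutch, a difference that passed in neither fit (adjusted p = 1 and 0.200 with the block), and LMZ was not separated from VMZ (log2 fold change 0.47 ± 0.45, SE), where the libraries overlapped.

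Between the poles, both AC libraries of tcf7l1 were above both VEG libraries. AC had 387 ± 86.7 TPM and VEG 194 ± 35.4 TPM, and AC was 1.48 and 2.65 times VEG in the clutches. The log2 fold change of 1.16 ± 0.45 (SE) missed the threshold (adjusted p = 0.192) and passed with the block (adjusted p = 0.0119). DMZ against VEG behaved in the same way, with a log2 fold change of 1.61 ± 0.46 (SE) and adjusted p values of 0.127 without and 0.00378 with the block. DESeq2, fitted without a block, called DMZ against VEG (adjusted p = 0.0138) and not AC against VEG (0.0893). DMZ was not separated from AC (0.45 ± 0.45, SE), and VMZ against AC (-1.13 ± 0.45, SE) passed in neither fit (adjusted p = 0.949 and 0.0589).

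Expression of lef1, the activating member, was lower than that of tcf7l1 in every library and had its low values where tcf7l1 was high. It had 22.3 and 11.5 TPM in DMZ, 29.0 and 19.6 TPM in LMZ, 38.1 and 21.3 TPM in VMZ, 19.9 and 10.9 TPM in AC, and 28.3 and 23.6 TPM in VEG, against 23.4 and 17.8 TPM in whole embryos. AC was lowest and DMZ next lowest in both clutches. VMZ was highest in replicate 1 and VEG in replicate 2. Most regions overlapped when the clutches were pooled, but both VMZ libraries were above both AC libraries, and both VEG libraries were above all DMZ and AC libraries.

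VMZ was 1.92 and 1.95 times AC for lef1, a log2 fold change of 0.91 ± 0.35 (SE) with an adjusted p of 0.848 without and 0.0183 with the block. AC against VEG gave -0.64 ± 0.35 (SE), with adjusted p values of 0.353 and 0.0141. In the marginal zone, DMZ was 0.585 and 0.541 of VMZ, and this difference of -0.75 ± 0.35 (SE) on the log2 scale passed in neither fit (adjusted p = 1 and 0.0956). LMZ, VMZ and VEG, the 3 highest regions by mean, were not separated from each other in either fit.

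Expression of tcf7, known as Tcf1, was lowest of the 3 well-detected Tcf/Lef genes and was highest in VEG. It had 12.98 and 10.71 TPM in DMZ, 10.4 and 6.67 TPM in LMZ, 11.9 and 9.08 TPM in VMZ, 10.3 and 6.87 TPM in AC, and 21.5 and 13.6 TPM in VEG, against 14.2 and 8.94 TPM in whole embryos. Both VEG libraries were above all 8 libraries of the other regions. DMZ was next, followed by VMZ, in both clutches, and LMZ and AC took the last places in turn.

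AC was 0.477 and 0.506 of VEG for tcf7, a log2 fold change of -0.90 ± 0.28 (SE) with adjusted p values of 0.108 without and 0.00286 with the block. LMZ against VEG gave -0.95 ± 0.28 (SE, adjusted p = 0.148 and 0.00289) and VMZ against VEG gave -0.64 ± 0.28 (SE, adjusted p = 0.395 and 0.0239). DESeq2, fitted without a block, called tcf7 in AC against VEG (adjusted p = 0.0181) and LMZ against VEG (0.0133), not in VMZ against VEG (0.194). DMZ against VEG (-0.39 ± 0.28, SE) passed in neither fit. None of the 3 marginal zones was separated from another or from AC.

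The fourth member, tcf7l2, was at the limit of detection. It had 0.23 and 0.13 TPM in DMZ, 0.08 and 0.04 TPM in LMZ, 0.11 and 0.13 TPM in VMZ, 0.08 and 0 TPM in AC, and 1.04 and 0.27 TPM in VEG, against 0.26 and 0.09 TPM in whole embryos. These levels stand for 0 to 28.3 expected counts, with at most 3 counts in 7 of the 12 libraries, where 3 counts amount to 0.104 to 0.194 TPM. VEG was the highest region in both clutches, with 28.3 and 4.91 expected counts. The gene did not pass the filter on low counts, so its regional differences were not tested.

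The make-up of the family followed from these profiles. Of the summed TPM of the 4 Tcf/Lef genes, tcf7l1 took 91.5% to 96.5% in the DMZ and AC libraries and 76.0% to 92.0% in the LMZ, VMZ and VEG libraries. The share of lef1 was 1.79% to 5.58% in DMZ and AC and 5.997% to 18.2% in LMZ, VMZ and VEG, and the summed level was 356 to 644 TPM and 207 to 328 TPM in these sets of libraries. The regions with most Tcf/Lef RNA had the smallest part of it from lef1. As tcf7l1 made up most of the sum, a high sum and a small lef1 share both follow from high tcf7l1, so this is not a separate result.

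The ratio of tcf7l1 to lef1, the main repressor against the main activator, was 17.9 and 53.9 in DMZ, 6.67 and 15.3 in LMZ, 4.17 and 9.63 in VMZ, 16.4 and 41.1 in AC, and 7.77 and 7.19 in VEG, against 12.7 and 24.3 in whole embryos. It declined from DMZ over LMZ to VMZ in both clutches, and it was higher in replicate 2 in each group except VEG. DMZ and AC libraries (16.4 to 53.9) lay above LMZ, VMZ and VEG libraries (4.17 to 15.3) with no overlap. These sets of regions were formed from the tcf7l1 and lef1 levels themselves, so the gap restates those levels. The ratios were not tested.

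**Figure D2:**
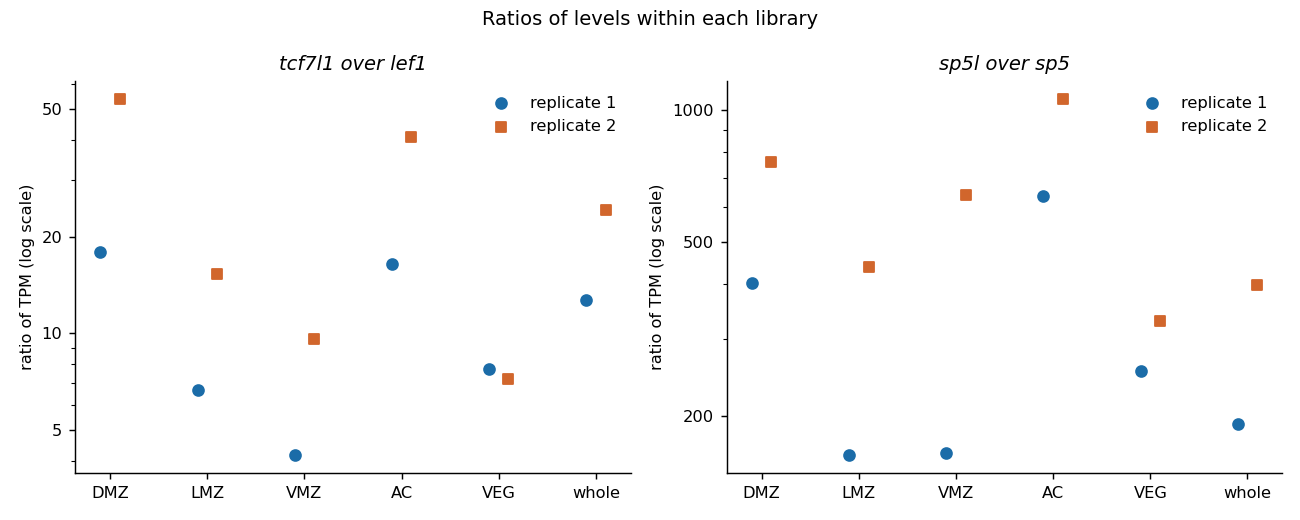
Ratio of tcf7l1 to lef1 TPM (left) and of sp5l to sp5 TPM (right) in each library, on log axes. Circles are replicate 1 and squares replicate 2. The tcf7l1 to lef1 ratio runs from 4.17 in VMZ of replicate 1 to 53.9 in DMZ of replicate 2, and replicate 2 is above replicate 1 in all groups of both panels except VEG on the left.

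Of the 6 genes sp5l had the highest TPM in every library but AC of replicate 2, where tcf7l1 was above it (448 TPM for tcf7l1 and 434 TPM for sp5l). It had 1230 and 1017 TPM in DMZ, 1544 and 1369 TPM in LMZ, 1484 and 1441 TPM in VMZ, 623 and 434 TPM in AC, and 1027 and 938 TPM in VEG, against 1060 and 991 TPM in whole embryos. Both AC libraries were below every other library, and both LMZ and both VMZ libraries were above all libraries of DMZ, AC and VEG. By its mean in whole embryos, 1025 ± 49.2 TPM (SD, n = 2), sp5l was the first of 10 Sp genes. For comparison, tcf7l1 was number 7 of 49 TFs with an HMG box, lef1 number 24, tcf7 number 29 and tcf7l2 number 43.

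Expression of sp5l was lower in AC than in each other region by the test. The marginal zones together averaged 2.28 and 2.94 times AC in the clutches, a log2 fold change of 1.34 ± 0.15 (SE, adjusted p = 0.00785). It was the 1 member called in this comparison, where 1.31% of all genes were called. LMZ against AC gave 1.44 ± 0.17 (SE, adjusted p = 0.0157), VMZ against AC 1.45 ± 0.17 (SE, adjusted p = 0.0166) and DMZ against AC 1.13 ± 0.17 (SE, adjusted p = 0.0222), and sp5l was again the 1 member called in each, where 0.795%, 0.795% and 1.35% of all genes were. AC against VEG gave -0.78 ± 0.17 (SE, adjusted p = 0.0322), the 1 member called where 8.04% of all genes were.

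With the clutch as a block, sp5l passed in each of these comparisons with AC too. Its adjusted p was then 4.85e-05 for the marginal zones against AC and 0.000597 for AC against VEG. For LMZ, VMZ and DMZ against AC it was 0.000126, 0.000109 and 0.000305. DESeq2 also called all of them (largest adjusted p 8.62e-05, for AC against VEG). In edgeR without the block, these calls of sp5l depended on the libraries fitted, though the direction did not. A fit without 1 region library leaves 1 library in that region, so only its effect sizes are given. Such fits lost calls of sp5l, and in each of these comparisons they also called fewer of all genes. Fits of only the 2 regions compared lost all 4 pairs. Those fits called 0 of 14408, 14704 and 14422 genes for DMZ, LMZ and VMZ against AC, so there the loss is not particular to sp5l. For AC against VEG such a fit called 390 of 14568 genes. The log2 fold changes without 1 library were 1.21 to 1.49 for the marginal zones against AC and -0.93 to -0.64 for AC against VEG.

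The step from the marginal zone to VEG was smaller for sp5l. LMZ was 1.503 and 1.46 times VEG and VMZ was 1.45 and 1.54 times VEG, with log2 fold changes of 0.66 ± 0.17 and 0.67 ± 0.17 (SE). Neither passed by edgeR without the block (adjusted p = 0.0965 and 0.107) and both passed with it (adjusted p = 0.0022 and 0.00251). Both also passed by DESeq2 without a block (adjusted p = 0.00148 and 0.0016). DMZ was 1.197 and 1.084 times VEG, with a log2 fold change of 0.36 ± 0.16 (SE) that was as low as 0.18 in the alternative fits. This difference also passed with the block alone (adjusted p = 0.347 and 0.0372), and the libraries of DMZ overlapped those of VEG. Without TMM the median of all genes moved by -0.17 in DMZ against VEG. Within the marginal zone, DMZ was 0.797 and 0.743 of LMZ and 0.829 and 0.706 of VMZ with no overlap, but neither difference passed in either fit, and LMZ and VMZ changed places between clutches.

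**Figure D3:**
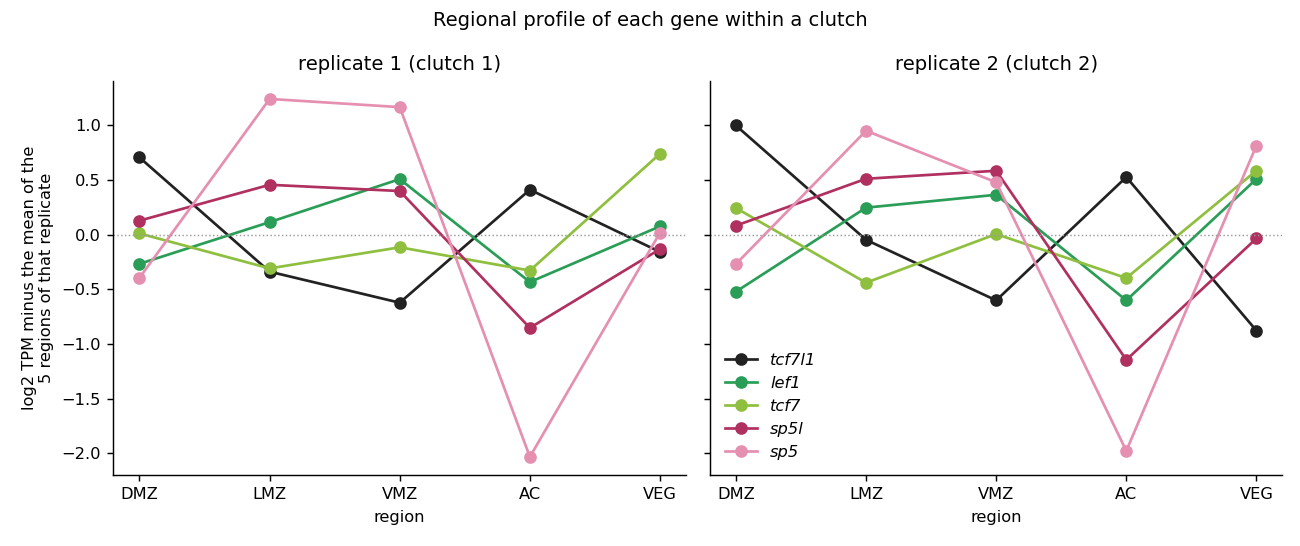
Regional profile of the 5 well-detected genes in replicate 1 (left) and replicate 2 (right), as log2 TPM minus the mean over the 5 regions of that replicate. In both clutches sp5 (pale pink) and sp5l (dark pink) dip in AC, while tcf7l1 (black) peaks in DMZ and AC.

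Its paralog sp5 had the same low point at a far lower level. It had 3.05 and 1.34 TPM in DMZ, 9.48 and 3.12 TPM in LMZ, 9.00 and 2.25 TPM in VMZ, 0.98 and 0.41 TPM in AC, and 4.06 and 2.84 TPM in VEG, against 5.52 and 2.48 TPM in whole embryos. AC was lowest, DMZ next lowest and LMZ highest in both clutches. Both AC libraries were below all libraries of other groups, and DMZ was below LMZ without overlap. The other regions overlapped when the clutches were pooled.

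LMZ was 9.67 and 7.61 times AC for sp5, a log2 fold change of 3.09 ± 0.77 (SE) that did not pass by edgeR without the block (adjusted p = 0.274) but did with it (adjusted p = 0.00122) and by DESeq2 (adjusted p = 0.00545). VMZ against AC (2.94 ± 0.77, SE), DMZ against AC (1.67 ± 0.75, SE) and AC against VEG (-2.18 ± 0.75, SE) also passed with the block and not without it by edgeR, at adjusted p values of 0.00171, 0.0369 and 0.0012 with the block, against 0.310, 0.999 and 0.141 without. The marginal zones together gave 2.57 ± 0.69 (SE, adjusted p = 0.245 and 0.00144 with the block). DESeq2, fitted without a block, also called sp5 in VMZ against AC (adjusted p = 0.0107), AC against VEG (0.0391) and the marginal zones together (0.00456). It did not call DMZ against AC (0.646). The size of these sp5 differences was uncertain: with 1 region library left out and no block, the log2 fold change was 2.32 to 3.72 for LMZ against AC, 1.78 to 3.57 for VMZ against AC, 1.15 to 2.29 for DMZ against AC, -2.81 to -1.79 for AC against VEG and 2.18 to 3.19 for the marginal zones together. On the log2(TPM + 1) scale, which understates changes of low genes, limma gave 1.98, 1.77, 0.88, -1.40 and 1.54 for the same comparisons. None of the 3 marginal zones was separated from VEG or from another marginal zone in either fit.

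The level of sp5 is the least certain of the 5. It rests on 8.18 to 311 expected counts, which is 0.142% to 0.912% of those of sp5l in the same library, and RSEM divides reads that fit both genes between them. The ratio of sp5l to sp5 was 403 and 759 in DMZ, 163 and 439 in LMZ, 165 and 640 in VMZ, 636 and 1060 in AC, and 253 and 330 in VEG, against 192 and 399 in whole embryos. The highest ratio was thus 6.51 times the lowest. How many of the sp5 reads also fit sp5l was not tested.

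The marginal marker t (brachyury, a T-box gene of the whole mesoderm) was far lower in AC relative to the marginal zones than sp5l was. The AC level of t was 4.76% and 2.17% of its marginal zone mean, that of sp5 was 13.7% and 18.3%, and that of sp5l 43.9% and 34.1%. For lef1 this share was 66.6% and 62.4%, for tcf7 87.3% and 77.9%, and for tcf7l1 130% and 119%. The part that marginal cells carried along with the caps may have in these values was not tested.

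**Figure D4:**
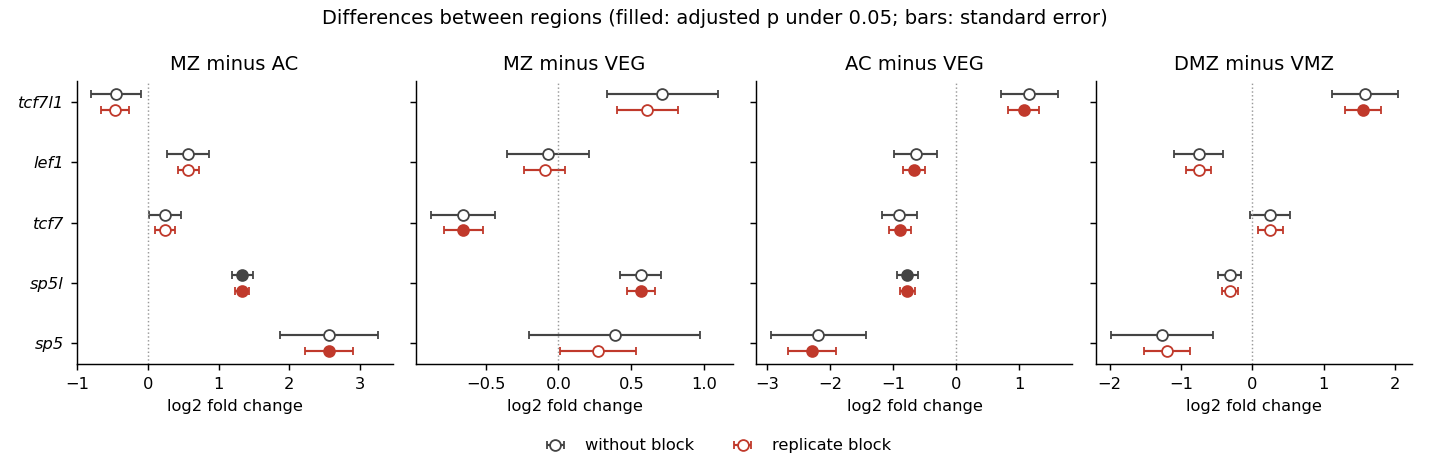
Log2 fold change of the 5 tested genes for the marginal zones together minus AC, the marginal zones minus VEG, AC minus VEG, and DMZ minus VMZ. Dark circles are the fit without and red circles the fit with the clutch as a block, bars are standard errors, and filled circles have an adjusted p under 0.05. The estimates of the fits are close and the bars are shorter with the block.

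Counted over pairs of regions, sp5l was called in 4 of 10 pairs, and the other 4 tested genes in 0 of 10 by edgeR. With the block sp5l was called in 7 pairs, sp5 in 4, tcf7l1 and tcf7 in 3 each and lef1 in 2, and with DESeq2 in 6, 3, 1, 2 and 0. With the block AC against VEG separated all 5 genes, tcf7l1 in 1 direction and the other 4 in the opposite one, where 40.6% of all genes were called. For the other pairs the block called 3 members in VMZ against AC (4.08% of all genes), 2 in LMZ against AC (3.56%) and DMZ against AC (4.95%). It called 2 members each in DMZ, LMZ and VMZ against VEG, where 33.3%, 29.4% and 25.4% of all genes were called. Without the block edgeR called 0 members in these 3 pairs, where 2.75%, 2.99% and 2.17% of all genes were called, with 1, 2 and 1 members at an unadjusted p under 0.05. DESeq2 called 1, 2 and 1 members there, and 1674, 1464 and 1255 of 15727 genes. For the marginal zones together the block called 2 members against AC (5.86% of all genes) and 2 against VEG (38.2%). Those against VEG were tcf7 (log2 fold change -0.66 ± 0.22, SE, adjusted p = 0.140 without and 0.00406 with the block) and sp5l (0.56 ± 0.14, SE, adjusted p = 0.0581 and 0.00142). Without the block edgeR called 0 against VEG (6.57% of all genes), with 2 at an unadjusted p under 0.05. DESeq2 called 2 members against VEG, and 2195 of 15727 genes. No member was called in DMZ against LMZ or LMZ against VMZ in either fit, where edgeR called 0.0% of all genes without the block and 0.547% and 0.0254% with it. At an unadjusted p under 0.05 these pairs had 1 and 0 members without the block and 5 and 0 with it. DESeq2 called 0 members in both, and 74 and 14 of 15727 genes.

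The median absolute log2 fold change of the 5 members exceeded that of all genes in the comparisons of regions given here. It was 0.75 for DMZ against VMZ, where all genes had 0.18, it was 0.90 for AC against VEG, where all genes had 0.49, and it was 0.57 for the marginal zones against AC, where all genes had 0.16. The signed medians of all genes were near 0 (-0.01, -0.03 and 0.01). For DMZ against VEG the excess was small (0.48, where all genes had 0.43). Between clutches the members had the lower value (0.37, where all genes had 0.52). As the members were chosen with earlier results of these data known, these medians are a description.

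Of 8 other Sp genes, 7 were tested. Over the 5 regions edgeR called 0, with 2 at an unadjusted p under 0.05, where 3.83% of all genes were called. It called 2 with the block (sp7 and sp8), where 29.9% of all genes were called. DESeq2 also called 2, where it called 1907 of 15727 genes. AC against VEG called 1 of the 7, where 8.04% of all genes were called. This was sp7, a zinc finger factor known from bone, which was higher in AC (3.95 TPM in AC and 0.45 TPM in VEG, log2 fold change 3.25, adjusted p = 0.0179). With the block 4 of 7 were called, where 40.6% of all genes were, and these 4 were higher in AC, while sp5 and sp5l were lower there with the block. The difference between the other Sp genes and these members was not tested. The marginal zones against AC called 0 of 7 by edgeR in either fit and by DESeq2, with 0 at an unadjusted p under 0.05. Of all genes, edgeR called 1.31% there without and 5.86% with the block, and DESeq2 502 of 15727. At such shares 0 of 7 does not set these genes apart from all genes. The median log2 fold change of these 7 was 0.75 for AC against VEG, against -0.03 over all genes, and -0.30 for the marginal zones against AC.

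Genes known to lie downstream of the pathway were measured on the same scale. Their 2 lists were chosen with earlier results of these data known, and gsc and t were also region markers, so their counts are a description. Genes downstream of the early dorsal signal were sia1, sia2, gsc, lhx1, otx2 and hhex. Of these 6, 5 were called over the regions, where 3.83% of all genes were. Between DMZ and VMZ 2 were called, both higher in DMZ, where 0.0445% of all genes were, or 5 with the block, where 1.46% were. These 2 were gsc, a homeobox gene of the organizer (390 TPM in DMZ and 5.02 TPM in VMZ, log2 fold change 6.40, adjusted p = 0.0346), and otx2, a head homeobox gene (432 TPM in DMZ and 10.2 TPM in VMZ, log2 fold change 5.52, adjusted p = 0.0346). The median over the 6 genes was 4.32, where tcf7l1 had 1.58 and the median of all genes was -0.01. Other comparisons did not show this likeness. For AC against VEG the median over the 6 genes was -6.37, where tcf7l1 had 1.16. It was -0.02 for DMZ against VEG, where tcf7l1 had 1.61, and 6.31 for DMZ against AC, where tcf7l1 had 0.45.

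Of 11 genes downstream of zygotic Wnt signalling in ventral and posterior tissue, 8 were called over the regions, where 3.83% of all genes were. The 11 did not share 1 pattern. Of those called, meis3 was lower in VMZ than in AC (42.3 and 74.5 TPM, log2 fold change -0.89), a difference called in neither fit. Neither gbx2.1 nor gbx2.2 was called over the regions in either fit. VMZ against AC called 4, all higher in VMZ, where 0.795% of all genes were called, and 8 with the block, where 4.08% were. DMZ against VMZ called 0 by edgeR (7 at an unadjusted p under 0.05), where 0.0445% of all genes were called. DESeq2 called 3 there, and 162 of 15727 genes. The block called 4, all 4 lower in DMZ, where 1.46% of all genes were called. The largest changes of VMZ against AC were those of msgn1, a bHLH gene of paraxial mesoderm (222 and 192 expected counts in VMZ and 0 and 1 in AC, adjusted p = 0.0282), t (854 TPM in VMZ and 25.95 TPM in AC, log2 fold change 5.04, adjusted p = 0.00501) and cdx2, a caudal homeobox gene (87.4 TPM in VMZ and 5.27 TPM in AC, log2 fold change 4.05, adjusted p = 0.0475). The median over the 11 genes was 3.15 for VMZ against AC, where sp5 had 2.94, sp5l 1.45, lef1 0.91 and all genes 0.01.

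The genes named tcf3, tcf4 and tcf12 belong to another family, the bHLH E proteins, and should not be taken for the older names of tcf7l1 and tcf7l2. For AC against VEG 2 of these 3 were called, tcf12 (30.3 TPM in AC and 11.4 TPM in VEG, log2 fold change 1.53, adjusted p = 0.0226) and tcf3 (94.2 TPM in AC and 52.4 TPM in VEG, log2 fold change 0.999, adjusted p = 0.0338), both higher in AC, and with the block all 3. Of all genes 8.04% were called without and 40.6% with the block. Among the 3 marginal zones edgeR called 0 of 3 in each pair and either fit, with 0 at an unadjusted p under 0.05 without the block, and DESeq2 called 0. Of all genes, edgeR called 0.0% to 0.0445% in these pairs without the block and 0.0254% to 1.46% with it, and DESeq2 14 to 162 of 15727.

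The TFs whose regional pattern was most like that of each gene were found by Pearson's r over the 10 region libraries, on log2(TPM + 1) centred within each clutch, among 759 TFs with a mean of at least 1 TPM. These points share their libraries, and with them depth and dissection, so that the values are a description. For sp5l the nearest were t (r = 0.978), mespb (0.939), a bHLH gene of paraxial mesoderm, and LOC733709 (0.937). For sp5 they were mespa (0.926), msgn1 (0.909) and mesp2 (0.895), all bHLH genes of paraxial mesoderm.

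For lef1 the nearest were cdx1 (0.948), evx1 (0.935) and msgn1 (0.933), of which cdx1 and evx1 are homeobox genes of posterior and ventral tissue. For tcf7l1 they were hes7.1 (0.973), a bHLH repressor gene of the hairy type, zic4 (0.924), a zinc finger gene, and rarg (0.895), a retinoic acid receptor. For tcf7 they were foxa2 (0.943), a forkhead gene of endoderm and organizer, nkx2-2 (0.938) and hes2 (0.934). Among the members themselves, r was -0.93 between lef1 and tcf7l1, 0.846 between sp5 and sp5l, and 0.823 between lef1 and sp5, while tcf7 had -0.225 to 0.256 with the others.

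The replicates, each 1 clutch, differed for most of these genes, as they did for most genes tested. By the study's methods each replicate was also a separate run of the whole experiment, and the libraries of replicate 2 were less deep. Clutch, dissection, library preparation and depth therefore cannot be told apart in this comparison. The median absolute log2 fold change between clutches was 0.37 over the 5 members and 0.52 over all genes. By TPM, lef1, tcf7 and sp5 were lower in replicate 2 in 6 of 6 groups, as was sp5l, and the median log2 fold change of all genes was -0.22. With TMM scaling, where that median was -0.03, lef1, tcf7 and sp5 had log2 fold changes of replicate 2 over replicate 1 of -0.37 ± 0.10, -0.28 ± 0.10 and -1.05 ± 0.18 (SE, adjusted p = 0.00651, 0.0245 and 0.000347). Expression of tcf7l1 was higher in replicate 2 in 5 of 6 groups, by 0.65 ± 0.14 (SE, adjusted p = 0.00321). Thus 4 of the 5 tested members were called between clutches, where 65.9% of the 15848 genes tested were, though tcf7 was not called by DESeq2 (adjusted p = 0.0664). With 1 clutch in each replicate, these p-values measure how steady the difference was over the libraries, not the spread among clutches.

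Within this comparison VEG stood apart for tcf7l1. The TPM of replicate 2 was 1.56 times that of replicate 1 in DMZ, 1.56 times in LMZ, 1.29 times in VMZ, 1.38 times in AC and 1.46 times in whole embryos, but 0.772 times in VEG. For sp5 the ratio was 0.25 in VMZ, 0.329 in LMZ, 0.418 in AC, 0.439 in DMZ, 0.449 in whole embryos and 0.70 in VEG. These differences between groups were not tested. Expression of sp5l had a TPM ratio of 0.697 in AC and 0.827 to 0.971 in the other groups, and its log2 fold change was 0.06 ± 0.06 (SE, adjusted p = 0.436) with TMM scaling, -0.07 by library size alone and -0.21 from TPM with limma (adjusted p = 0.0166), so that its direction between clutches differed with the scaling. Without TMM the median of all genes moved by -0.13 in this comparison.

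**Figure D5:**
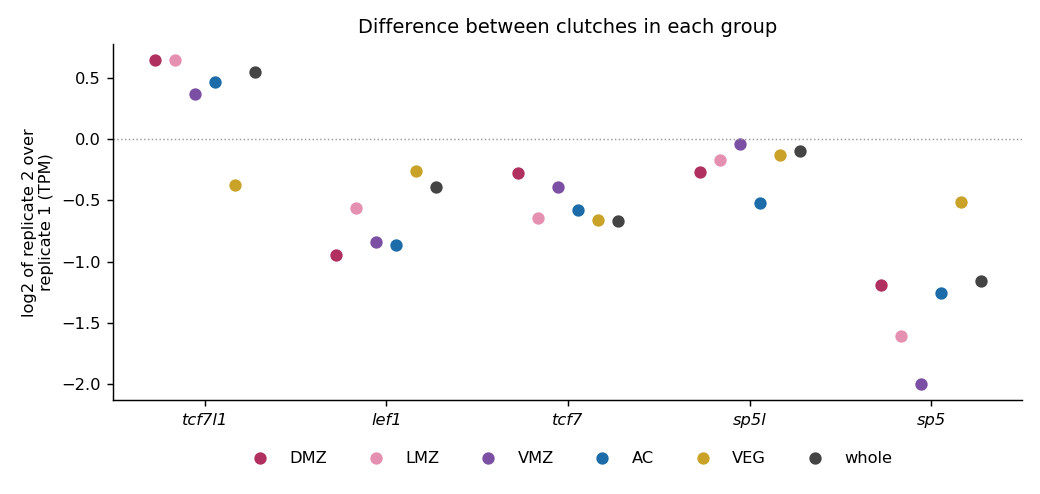
Log2 ratio of replicate 2 to replicate 1 TPM for the 5 genes, with 1 point for each of the 6 groups. Points of lef1, tcf7, sp5l and sp5 are all below 0, and those of tcf7l1 are above 0 except VEG. By TPM the median of all genes was also below 0, at -0.22.

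Whole embryos lay within the range of their own regions for all 6 genes in both clutches. Their level was 0.79 to 1.25 times the unweighted mean of the 5 regions of that clutch, lowest for tcf7l2 and highest for sp5, both in replicate 2. For tcf7l1 it was 1.14 and 1.24 times the mean and for sp5l 0.897 and 0.953 times. The sizes of the regions are not known, so no mixture of them was fitted.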

How the data were processed

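Libraries were non-stranded polyA+ RNA, read as 50-bp single ends. The authors ran RSEM (version 1.2.12) against the v9.0 assembly. The expected counts they deposited are estimated reads for each gene model with no scaling between libraries, and the deposited TPM values correct for transcript length and depth. RSEM divides reads among similar genes, and overlapping genes are uncertain without strand. Names came from the TF catalogue published with the data, so Wnt ligands, receptors and other genes outside it were left out.

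Rounded counts were filtered (filterByExpr), scaled by TMM and given to edgeR's robust quasi-likelihood test (version 4.0.16, R 4.3.3), using the 10 region libraries, or all 12 with a replicate term for the clutches. Benjamini-Hochberg adjustment covered all genes, and 0.05 was the threshold. Differences are first minus second region, and SE is the log2 fold change over the root of F.

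Replicates pair the samples, as each is 1 clutch by the study's methods. The main fit did not use this pairing, since those methods name no clutch term. Its SE and p therefore include the difference between clutches, and a difference it did not call may be called with the block. Deviations from group means correlated at 0.744 to 0.903 (median 0.861) over 15 pairs of groups. Alternatives were the replicate block, DESeq2 1.42.0, library size without TMM, no filter, all 12 libraries, only 2 regions, limma 3.58.1 with log2(TPM + 1) or log2(TPM + 0.1), and each library left out. Scripts were tested on simulated counts, and tables were made in Python 3.11.15. Named genes were the 6 members, their nearest 3 TFs, and up to 3 called genes of each list with the largest change. Members and lists were chosen with earlier results of these data known.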

Additional observations from a re-analysis of the deposited data

Results flagged for a closer look

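Of 50 comparisons of a tested gene between a pair of regions, 7 had opposite signs in the clutches, as log2 ratios of TPM in replicate 1 and replicate 2. The difference between clutches was not tested, since each has 1 library per region. Most of the 7 involve VEG. LMZ over VEG was 0.04 and -0.26 for lef1 and -0.18 and 0.83 for tcf7l1. VMZ over VEG was 0.43 and -0.14 for lef1, -0.46 and 0.28 for tcf7l1, and 1.15 and -0.34 for sp5. LMZ over AC was 0.02 and -0.04 for tcf7, and LMZ over VMZ was 0.06 and -0.07 for sp5l. None of these 7 passed the test in either fit.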

How the results depend on the processing

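Most values kept their direction and side of the threshold. Of the results of single genes, the replicate block left 42 the same, added a call to 22 and turned the sign of 1. Across the 5 regions 1 member was called, 5 with the replicate block and 4 with DESeq2, where 602, 4699 and 1907 of 15727 genes were called. With the replicate block 2 members were called in DMZ against AC, LMZ against AC, the marginal zones against AC, DMZ, LMZ and VMZ against VEG and the marginal zones against VEG, 3 in VMZ against AC, 5 in AC against VEG and 1 in DMZ against VMZ. Of all genes, the block called 40.6% in AC against VEG and 1.46% in DMZ against VMZ. It called 3.56% to 5.86% in the other comparisons with AC and 25.4% to 38.2% in the other comparisons with VEG. DESeq2 called 2 in LMZ and VMZ against AC, LMZ against VEG and both comparisons of the marginal zones together, 1 in DMZ and VMZ against VEG, and 3 in AC against VEG. Of 15727 genes it called 335 and 363 in LMZ and VMZ against AC and 1464 in LMZ against VEG. For the marginal zones together it called 502 genes against AC and 2195 against VEG. It called 1674 and 1255 genes in DMZ and VMZ against VEG, and 2540 in AC against VEG. With all 12 libraries fitted, 1 was called for the marginal zones against VEG, where 1323 of 15848 genes were. Fits of only 2 regions called 0 members in DMZ, LMZ and VMZ against AC, where they called 0 of 14408, 14704 and 14422 genes. They called 0 members in AC against VEG, where 390 of 14568 genes were called. With no filter on low counts 0 members were called in AC against VEG, where 1125 of 23676 genes were. The cause of these changes was not tested.

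With 1 library left out, edgeR called fewer of all genes in the comparisons that had called sp5l, and calls of sp5l were lost in part or all of these fits. A region then has 1 library, so effect sizes alone are given below for such fits. Of the clutch calls, tcf7 was lost with DESeq2 (adjusted p = 0.0664) and without whole embryos (adjusted p = 0.0785).

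Signs turned only for differences that edgeR had not called, given on the log2 scale. LMZ against VMZ was 0.005 for sp5l without the filter. LMZ against VEG was 0.015 for lef1 without the filter and 0.018 with only 2 regions. VMZ against VEG for tcf7l1 was -0.048 with the replicate block, -0.088 without TMM, and -0.093 and -0.094 with limma at pseudocounts of 1 and 0.1. Replicate 2 against replicate 1 for sp5l was -0.071 without TMM and -0.206 with limma, which called it. With 1 library left out, LMZ against VMZ ranged from -0.558 to 0.058 for lef1, -0.094 to 0.871 for tcf7l1, -0.624 to 1.314 for sp5 and -0.096 to 0.084 for sp5l. DMZ against AC ranged from -0.207 to 0.497 for lef1 and -0.094 to 0.846 for tcf7l1, and LMZ against AC from -0.214 to 0.134 for tcf7. LMZ against VEG ranged from -0.128 to 0.107 for lef1 and -0.058 to 0.907 for tcf7l1. VMZ against VEG ranged from -0.063 to 0.553 for lef1, -0.289 to 0.301 for tcf7l1 and -0.399 to 1.391 for sp5, and the marginal zones against VEG from -0.191 to 0.028 for lef1.

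Without TMM the median of all genes moved by -0.17 to -0.11 in the comparisons with VEG. Depth limits tcf7l2, with at most 3 counts in 7 of 12 libraries, and sp5, with as few as 8.18.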
